A study of Macaca fascicularis with 56 samples.

Results

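Killer lectin-like receptors were followed in whole blood of 14 cynomolgus macaques, read on a human genome array at 0, 2, 4 and 8 h (56 arrays, 1 per animal and hour). Of the 7 genes listed, KLRB1, KLRC3, KLRC4, KLRD1, KLRF1, KLRG1 and KLRK1, 6 had a probe set annotated to that gene alone, and the probe set with the highest mean log2 intensity was taken for each. KLRK1 was skipped because its probe sets also carry the symbol of a read-through gene with KLRC4. Of the 6, 5 passed the filter on low values and were tested among 16020 genes. KLRC4 did not pass, since its probe set lay above the median of its array on 1 of 56 arrays, and its values are given without a place in the counts.

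The LR12 arm held 6 animals (Y31309 to Y31314), the peptide control arm 4 (Y31305 to Y31308) and the vehicle arm 4 (Y31301 to Y31304). The series title describes an endotoxin challenge and then LR12 or its scrambled counterpart, so both peptide arms followed a challenge with bacterial lipopolysaccharide. LR12 is a short peptide that mimics part of TREM-like transcript 1 and competes for the ligands of TREM-1, an amplifying receptor of neutrophils and monocytes. The labels give neither doses nor the place of hour 0 in the protocol, and they do not state whether vehicle animals received endotoxin. Each arm therefore shows the course of whole blood after hour 0, and no arm is labelled as free of endotoxin.

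Killer lectin-like receptors are type II membrane proteins of natural killer (NK) cells and of subsets of T cells, and most of their genes lie in a cluster called the NK gene complex. KLRD1 (CD94) pairs with proteins of the KLRC (NKG2) genes and reads HLA-E, a class I molecule that reports on antigen presentation in the neighbouring cell. KLRK1 (NKG2D) reads stress-induced ligands through the adaptor HCST, whereas KLRB1 (CD161), KLRF1 (NKp80) and KLRG1 read CLEC2D, CLEC2B and cadherins. In blood these receptors mark cytotoxic lymphocytes, with KLRG1 on differentiated cells and KLRB1 also on innate-like T cells. In the macaque gene table (assembly T2T-MFA8v1.1), 6 of the 7 symbols were present, all on chromosome 11. KLRK1 stood there between KLRC4 and KLRD1, KLRF1 next to CLEC2B, and KLRG1 next to M6PR. KLRC3 had no entry, and 3 genes without a symbol lay between KLRC1 and KLRC4. The KLRC genes are close paralogs, so a probe set named for one of them in human may read its relatives in macaque, and the values of KLRC3 and KLRC4 are uncertain in that respect.

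Levels are log2 of the deposited intensity, and a change is a difference of 2 such means within an animal-blocked limma fit, so that a change of -1 is a halving. Probe sets differ in affinity, and levels were not compared between genes. Overlap between the arrays of 2 groups is given per gene as a description, without the share of all genes that do not overlap. All arrays had been scaled to one trimmed mean, while the median of all genes moved by -0.18, -0.29 and -0.27 at 2, 4 and 8 h in LR12 animals, by -0.04, -0.26 and -0.11 in peptide control animals, and by 0.03, -0.15 and -0.06 in vehicle animals. The arrays were split into 2 sets at the widest gap in the mean of their spike-in controls, with 24 high-control and 32 low-control arrays. Such a split always gives 2 sets, and the gap was 0.30 log2 units in means from 8.42 to 10.77. The high-control set held 1, 1, 2 and 3 of the 6 LR12 arrays at 0, 2, 4 and 8 h, 3, 1, 4 and 3 of the 4 peptide control arrays, and 2, 0, 2 and 2 of the 4 vehicle arrays. Of the 11 neutrophil, 16 T-cell and 11 NK-cell markers tested, each list was read in blood of every arm at 0 h, at mean log2 levels of 8.02, 8.58 and 7.46 in LR12 animals.

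In LR12 animals, all 5 tested receptor genes had a change below 0 at each hour after 0 h. The median of all genes was also below 0 at these hours, at -0.18, -0.29 and -0.27. At each hour 4 of the 5 receptor genes were called lower. KLRB1, KLRC3 and KLRD1 were called at 2, 4 and 8 h, KLRF1 at 4 and 8 h, and KLRG1 at 2 h. The median change of the 5 genes was -1.64, -1.75 and -1.38 at 2, 4 and 8 h. Genes called lower (adjusted p below 0.05) made up 25.8%, 29.8% and 25.5% of all genes tested at those hours, so falls were common in this arm. In peptide control animals, 0, 1 and 0 of the 5 were called lower, against 3.26%, 10.5% and 1.92% of all genes. In vehicle animals, limma called none at any hour, against 0.00624%, 0.268% and 0.112% of all genes. At an unadjusted p below 0.05 the vehicle counts were 2, 3 and 3 of 5, against 1558, 2252 and 1578 of all 16020 genes. The low share of calls in vehicle animals held for the whole table. Adjustment was made within each comparison and the arms differ in animal number, so counts of calls do not measure a difference between arms. In limma, KLRG1 at 2 h had an unadjusted p of 0.000179 in vehicle animals, not called, and of 0.00523 in LR12 animals, called. Whole blood cannot show whether fewer cells carried a receptor or each cell held less of its RNA.

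**Figure D1:**
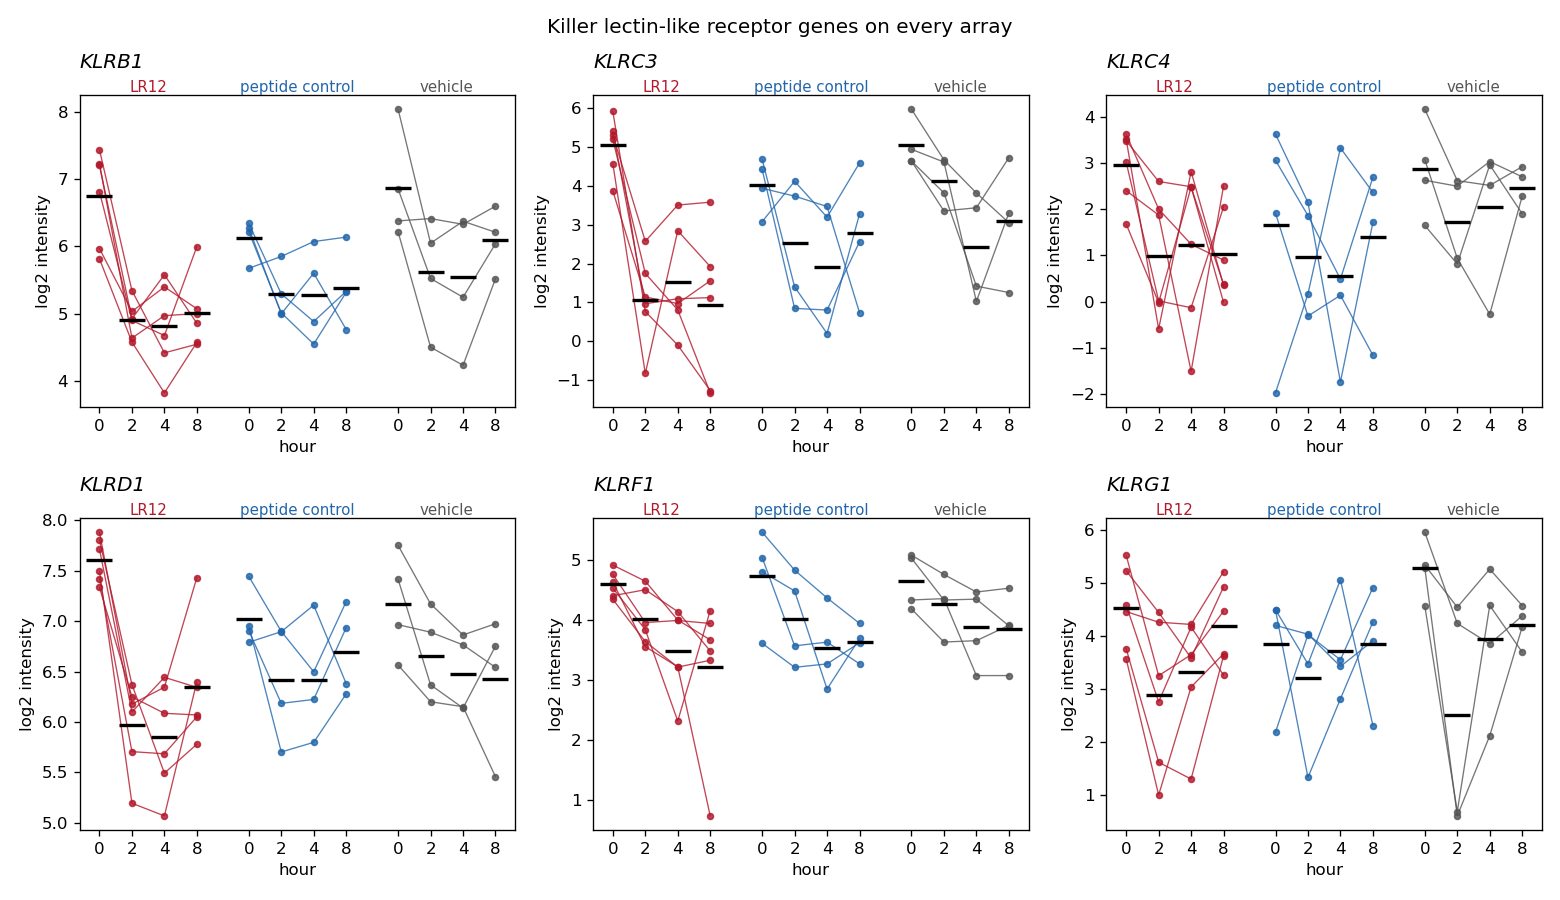
Log2 intensity (y axis, own scale per gene) of the 6 receptor genes with a probe set of their own against hour (x axis) in LR12, peptide control and vehicle animals. Points are arrays, thin lines join the arrays of an animal and black bars are group means. In LR12 animals the mean at 4 h is below that at 0 h for each gene, and KLRC4 is scattered near the low end.

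KLRD1, the partner chain of the NKG2 receptors, was above the array median on 56 of 56 arrays. In LR12 animals its lowest, median and highest level was 7.33, 7.60 and 7.88 at 0 h, 5.19, 6.14 and 6.37 at 2 h, 5.07, 5.89 and 6.44 at 4 h, then 5.78, 6.21 and 7.43 at 8 h. At 2 and 4 h all 6 LR12 arrays lay below the 6 arrays of 0 h, and at 8 h the array of Y31309 had come back into that range. Peptide control animals Y31305 to Y31308 read 6.79, 7.44, 6.96 and 6.91 at 0 h, 6.89, 6.90, 5.70 and 6.18 at 2 h, 7.16, 6.50, 5.80 and 6.22 at 4 h, then 6.38, 7.19, 6.28 and 6.94 at 8 h. Vehicle animals Y31301 to Y31304 read 7.75, 7.41, 6.56 and 6.96 at 0 h, 7.17, 6.37, 6.20 and 6.89 at 2 h, 6.86, 6.14, 6.15 and 6.76 at 4 h, then 6.97, 6.75, 5.46 and 6.54 at 8 h. Levels of both control arms overlapped their 0 h levels at each later hour, and all 4 vehicle animals were below their own 0 h value at 2, 4 and 8 h. The change in LR12 animals was -1.64 ± 0.23 (SE) at 2 h, -1.75 ± 0.23 at 4 h and -1.26 ± 0.23 at 8 h, with adjusted p of 1.24e-07, 2.55e-08 and 2.79e-05. In peptide control animals it was -0.60, -0.60 and -0.33 at 2, 4 and 8 h, and in vehicle animals -0.52, -0.69 and -0.74, with adjusted p of 0.143 or more. The fall to 2 h was larger in LR12 than in vehicle animals by 1.13 log2 units (difference -1.13 ± 0.37, adjusted p = 0.0411, against 7.72% of all genes called lower in that comparison). In level, LR12 minus vehicle was 0.43 at 0 h and -0.69 at 2 h, neither called, so a higher 0 h level in LR12 animals enters this difference. Without the animal block the difference in the change to 2 h had an adjusted p of 0.149, and on low-control arrays alone it was -0.82 with an adjusted p of 0.255. With quantile normalization it was -0.95 with an adjusted p of 0.0723. The call of this difference was lost on leaving out any 1 of Y31301, Y31303, Y31304, Y31310, Y31312 and Y31314, with adjusted p from 0.0584 to 0.199. Leaving out Y31308, a peptide control animal outside this difference, left it at -1.13 and moved its adjusted p to 0.051.

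The probe sets of KLRD1 did not give one picture. Besides the probe set followed here (210606_x_at), 207795_s_at gave LR12 changes of -2.67, -1.94 and -1.87 at 2, 4 and 8 h, with adjusted p of 0.000421, 0.00958 and 0.0165 over all 54675 probe sets. The third, 207796_x_at, gave -0.12, -0.46 and -0.17, with adjusted p of 0.869, 0.328 and 0.766. Suffixes of this kind mark probe sets that may match more than 1 transcript, and which of them reads macaque KLRD1 best was not tested. With 207796_x_at in place of the main probe set, the difference between LR12 and vehicle animals in the change to 2 h was 0.06. With 207795_s_at it was -2.38 and not called (adjusted p = 0.17).

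**Figure D2:**
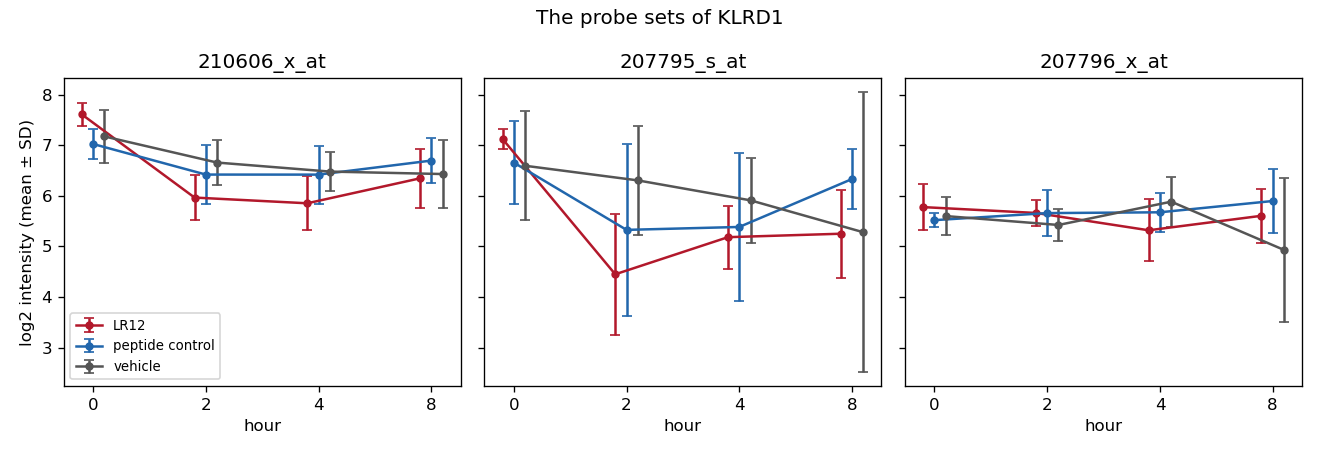
Mean log2 intensity ± SD (y axis) of the 3 KLRD1 probe sets against hour (x axis) in LR12 (n = 6), peptide control (n = 4) and vehicle (n = 4) animals. In LR12 animals 210606_x_at and 207795_s_at are below their 0 h means at 2, 4 and 8 h by 1.26 to 2.67 log2 units, and 207796_x_at by 0.12 to 0.46.

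KLRC3 (NKG2E), a partner of KLRD1, fell in LR12 animals at 2, 4 and 8 h. Its lowest, median and highest level there was 3.87, 5.26 and 5.92 at 0 h, -0.83, 1.05 and 2.57 at 2 h, -0.10, 1.03 and 3.51 at 4 h, then -1.33, 1.34 and 3.58 at 8 h. All 6 LR12 arrays of each later hour lay below all 6 of 0 h, and 5, 4 and 4 of them were under the 20th percentile of their array at 2, 4 and 8 h, so the size of the fall rests on signals near the low end of the array. Peptide control animals Y31305 to Y31308 read 3.94, 3.08, 4.42 and 4.69 at 0 h, 3.74, 4.12, 0.85 and 1.40 at 2 h, 3.47, 3.19, 0.80 and 0.20 at 4 h, then 0.73, 4.59, 2.56 and 3.28 at 8 h. At 2 and 4 h the levels of Y31307 and Y31308 were low and those of Y31305 and Y31306 stayed within the 0 h range. Vehicle animals Y31301 to Y31304 read 5.98, 4.94, 4.64 and 4.64 at 0 h, 4.67, 4.62, 3.82 and 3.36 at 2 h, 3.82, 1.02, 1.42 and 3.44 at 4 h, then 3.05, 3.30, 1.25 and 4.73 at 8 h. The 4 vehicle arrays of 4 h did not overlap those of 0 h. The change in LR12 animals was -3.99 ± 0.68 at 2 h, -3.53 ± 0.68 at 4 h and -4.12 ± 0.68 at 8 h (adjusted p of 3.65e-06, 2.44e-05 and 3.86e-06). With an offset of 16 added before log2, which damps low signals, these changes were -1.44, -1.34 and -1.38, all still called, and at 4 h those of KLRD1 (-1.50) and KLRB1 (-1.47) were then larger in size. In peptide control animals the change at 4 h was -2.12 ± 0.83 (adjusted p = 0.0725), and in vehicle animals it was -2.63 ± 0.83 (adjusted p = 0.124), or -1.13 and called with the offset (adjusted p = 0.0178). At 2 h the level was lower in LR12 than in vehicle animals by 3.06 log2 units (difference -3.06 ± 0.86, adjusted p = 0.00905, against 12.7% of all genes called lower), with no overlap between the 6 LR12 and the 4 vehicle arrays, and with the offset this difference was -0.87. The difference in the change to 2 h had the same size, -3.06 ± 1.07, with an adjusted p of 0.0552. It was called with the offset (-0.88, adjusted p = 0.0498), with quantile normalization (adjusted p = 0.0414), with array set as a covariate (adjusted p = 0.0478) or without Y31309 (-3.31, adjusted p = 0.0364). It was also called without Y31305, a peptide control animal outside this difference, with the difference still at -3.06 (adjusted p = 0.0413).

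KLRC4 (NKG2F), a paralog of KLRC3, was under the 20th percentile on 29 of 56 arrays. In LR12 animals its lowest, median and highest level was 1.68, 3.26 and 3.63 at 0 h, -0.59, 0.95 and 2.61 at 2 h, -1.51, 1.86 and 2.82 at 4 h, then -0.02, 0.64 and 2.51 at 8 h. The levels of later hours overlapped those of 0 h in each arm. With no filter on low probe sets, its LR12 change was -1.98, -1.73 and -1.93 at 2, 4 and 8 h, with adjusted p of 0.0484, 0.0822 and 0.0554. In vehicle animals the same fit gave -1.16, -0.82 and -0.43, with adjusted p of 0.75 or more. In peptide control animals it gave -0.69, -1.11 and -0.25, with adjusted p of 0.49 or more. At 4 h the change there ran from -5.38 in Y31306 to 5.32 in Y31305, so values of this probe set scatter widely.

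KLRB1 (CD161), which reads CLEC2D, was above the array median on 56 of 56 arrays. In LR12 animals its lowest, median and highest level was 5.82, 7.01 and 7.44 at 0 h, 4.58, 4.91 and 5.34 at 2 h, 3.82, 4.82 and 5.58 at 4 h, then 4.55, 4.93 and 6.00 at 8 h. No LR12 array of 2 or 4 h reached the 0 h range, and at 8 h only that of Y31310 did. Peptide control animals Y31305 to Y31308 read 5.67, 6.34, 6.22 and 6.27 at 0 h, 5.85, 5.29, 5.01 and 5.0 at 2 h, 6.07, 4.88, 4.55 and 5.60 at 4 h, then 6.14, 5.33, 5.32 and 4.76 at 8 h. Y31305 was above its own 0 h level at 2, 4 and 8 h and the other 3 animals were below theirs. Vehicle animals Y31301 to Y31304 read 8.04, 6.85, 6.22 and 6.38 at 0 h, 6.05, 5.52, 4.50 and 6.41 at 2 h, 6.37, 5.24, 4.23 and 6.33 at 4 h, then 6.21, 6.04, 5.52 and 6.60 at 8 h. All 4 vehicle animals were below their 0 h level at 4 h, Y31304 by 0.05. The change in LR12 animals was -1.84 ± 0.30 at 2 h, -1.93 ± 0.30 at 4 h and -1.74 ± 0.30 at 8 h (adjusted p of 2.23e-06, 7.19e-07 and 1.10e-05). In peptide control animals it was -0.84, -0.85 and -0.74 (adjusted p of 0.183, 0.11 and 0.267), and in vehicle animals -1.25, -1.33 and -0.78 (adjusted p of 0.16, 0.0784 and 0.483). With a term per animal in place of the random block, the vehicle change at 4 h was called (adjusted p = 0.0489), and on low-control arrays alone that at 2 h was (-1.78, adjusted p = 0.0456). At 8 h the level in LR12 animals was below that in vehicle animals by 1.08 log2 units, with an interval of the difference of -1.86 to -0.31 and an adjusted p of 0.082.

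KLRF1 (NKp80), which reads CLEC2B, was called lower at 4 and 8 h and not at 2 h in LR12 animals. Its lowest, median and highest level was 4.34, 4.57 and 4.91 at 0 h, 3.55, 3.89 and 4.64 at 2 h, 2.31, 3.60 and 4.13 at 4 h, then 0.73, 3.57 and 4.15 at 8 h. The levels of 2 h overlapped those of 0 h, and those of 4 and 8 h did not. Peptide control animals Y31305 to Y31308 read 5.46, 5.04, 3.61 and 4.80 at 0 h, 4.83, 3.56, 3.21 and 4.48 at 2 h, 4.36, 3.63, 3.26 and 2.84 at 4 h, then 3.94, 3.27, 3.62 and 3.69 at 8 h. All 4 were below their own 0 h level at 2 and 4 h. Vehicle animals Y31301 to Y31304 read 5.02, 4.18, 4.33 and 5.07 at 0 h, 4.33, 3.63, 4.35 and 4.75 at 2 h, 4.34, 3.65, 3.07 and 4.46 at 4 h, then 3.90, 3.91, 3.07 and 4.52 at 8 h. All 4 were below their own 0 h level at 4 and 8 h. The change in LR12 animals was -0.57 ± 0.35 at 2 h (adjusted p = 0.212), -1.12 ± 0.35 at 4 h (adjusted p = 0.00803) and -1.38 ± 0.35 at 8 h (adjusted p = 0.0016). At 8 h Y31313 alone changed by -3.89, and without it the change of the arm was -0.87 (adjusted p = 0.0356). The 4 h call was lost without Y31312 (change -0.90, adjusted p = 0.0515). With the offset of 16 the LR12 changes at 4 and 8 h were -0.53 and -0.58, both still called. In peptide control animals KLRF1 was the 1 receptor gene called, at 4 h (change -1.20 ± 0.43, adjusted p = 0.0498), and the call was lost without the animal block (adjusted p = 0.129) or with arrays centred on their medians (-0.93, adjusted p = 0.155). It was also lost on leaving out any of the 4 peptide control animals, with adjusted p from 0.0684 to 0.235. Leaving out an animal of another arm left the change at -1.20. The call was then lost for all but Y31303, Y31312 and Y31313, with adjusted p from 0.0562 to 0.0618. In vehicle animals the change was -0.39, -0.77 and -0.80 at 2, 4 and 8 h, with adjusted p of 0.411 or more. The difference between LR12 and peptide control animals in the change to 4 h was 0.08, with an interval of -1.04 to 1.20.

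KLRG1, an inhibitory receptor for cadherins, was called lower in LR12 animals at 2 h. Its lowest, median and highest level there was 3.56, 4.51 and 5.52 at 0 h, 0.99, 3.0 and 4.44 at 2 h, 1.29, 3.61 and 4.21 at 4 h, then 3.26, 4.06 and 5.21 at 8 h. All 6 LR12 animals were below their own 0 h level at 2 and 4 h and 4 of them at 8 h, with overlap between the groups at each hour. Peptide control animals Y31305 to Y31308 read 4.49, 4.19, 4.49 and 2.18 at 0 h, 3.47, 4.03, 1.32 and 4.02 at 2 h, 5.05, 3.42, 2.81 and 3.54 at 4 h, then 2.30, 3.90, 4.26 and 4.90 at 8 h. These values show no common course, and Y31308 had its lowest level at 0 h. Vehicle animals Y31301 to Y31304 read 5.95, 5.28, 4.56 and 5.33 at 0 h, 4.23, 0.60, 0.68 and 4.54 at 2 h, 3.84, 2.11, 4.57 and 5.25 at 4 h, then 4.37, 4.16, 3.69 and 4.57 at 8 h. At 2 h Y31302 and Y31303 were near the low end of their arrays, and all 4 vehicle arrays lay below those of 0 h. The change in LR12 animals was -1.63 ± 0.56 at 2 h (adjusted p = 0.0167), -1.19 ± 0.56 at 4 h (adjusted p = 0.0807) and -0.33 ± 0.56 at 8 h (adjusted p = 0.691). At 8 h 46.9% of all genes had a lower change than KLRG1. With arrays centred on their medians the 8 h change was -0.05 (adjusted p = 0.959). The 4 h change was called with the offset of 16 (-0.55, adjusted p = 0.0344) or with array set as a covariate (-1.31, adjusted p = 0.0477), and at 2 h the offset gave -0.66. The 2 h call was lost without Y31310 (adjusted p = 0.0604) or without Y31313 (adjusted p = 0.0631). In vehicle animals the change to 2 h was -2.77 ± 0.69 (adjusted p = 0.099), larger in size than in LR12 animals, and with a term per animal in place of the random block its adjusted p was 0.0456. The difference between LR12 and vehicle animals in this change was 1.14, with an interval of -0.64 to 2.91.

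**Figure D3:**
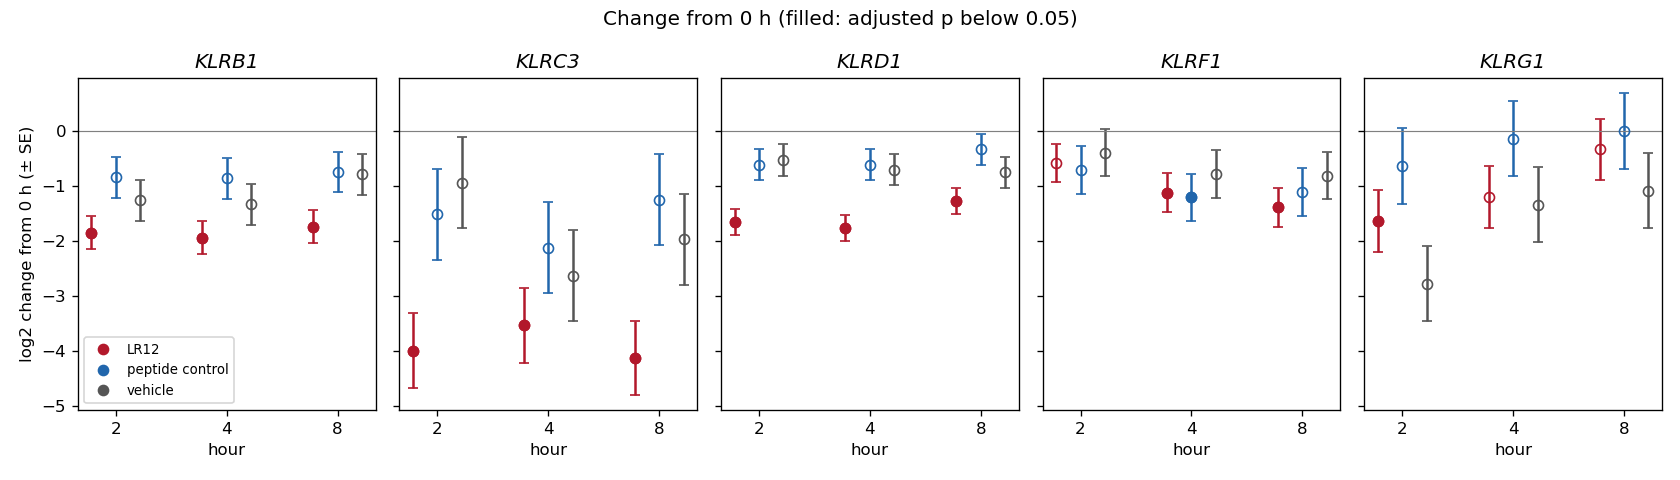
Log2 change from 0 h with its SE (y axis) of the 5 tested receptor genes against hour (x axis) in LR12, peptide control and vehicle animals. Filled points have an adjusted p below 0.05. At 4 h in LR12 animals the filled points run from -3.53 (KLRC3) to -1.12 (KLRF1), and 1 filled point, KLRF1 at 4 h, lies outside that arm.

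Between arms at one hour, limma called 0 of 5 receptor genes at 0 h for LR12 against peptide control and 0 of 5 for LR12 against vehicle, also at an unadjusted p below 0.05, against 0% and 0.0187% of all genes called lower. At that unadjusted threshold, 790 and 746 of all 16020 genes passed. The 0 h difference of LR12 minus peptide control was 0.62 for KLRB1, 1.02 for KLRC3, 0.58 for KLRD1, 0.68 for KLRG1 and -0.13 for KLRF1. At 2, 4 and 8 h, LR12 against peptide control gave 0 calls of 5 at each hour (unadjusted 0, 0 and 1), against 4.15%, 1.35% and 0.0499% of all genes called lower. LR12 against vehicle gave 1, 0 and 0 (unadjusted 2, 1 and 2), against 12.7%, 9.01% and 3.1%. These unadjusted counts stand against 2973, 2666 and 1821 of all genes for peptide control, and 4729, 4438 and 3454 for vehicle. For the difference in the change from 0 h, LR12 against vehicle gave 1, 0 and 0 calls (unadjusted 2, 1 and 1), against 7.72%, 4.76% and 1.08% of all genes. LR12 against peptide control gave 0, 0 and 0 (unadjusted 3, 2 and 3), against 1.09%, 0% and 0%. Unadjusted, 4063, 3772 and 3187 of all genes passed against vehicle, and 2821, 1885 and 1602 against peptide control. For KLRD1 at 4 h the difference in change was -1.06 against vehicle (interval -1.80 to -0.32, adjusted p = 0.0662) and -1.15 against peptide control (interval -1.89 to -0.41, adjusted p = 0.193). Its difference in level was 0.43 at 0 h and -0.63 at 4 h against vehicle. Against peptide control it was 0.58 at 0 h and -0.57 at 4 h, and no difference in level was called. The KLRD1 difference in the change to 4 h against vehicle was called with a term per animal in place of the random block (adjusted p = 0.0328). It was also called without Y31305, a peptide control animal outside this difference, with the difference still at -1.06 (adjusted p = 0.0499). Without Y31303, KLRB1 was called lower in LR12 than in vehicle animals at 2, 4 and 8 h (-1.09, -1.17 and -1.27), KLRD1 at 2 h (-0.84) and KLRC3 at 8 h (-2.76), the last also without Y31309 (-2.68). These comparisons share the LR12 animals. The falls of the LR12 arm were thus called within that arm, while most of their differences from the control arms were not called. Peptide control against vehicle gave 0 calls of 5 at each hour, against 0%, 0%, 0.025% and 0.025% of all genes called either way at 0, 2, 4 and 8 h, and 0 of 5 for each change from 0 h, against 0%. At an unadjusted p below 0.05 these comparisons gave 1, for the change to 2 h, where 950 of all genes passed.

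After 4 h, limma called no receptor gene between 8 h and 4 h in LR12 animals (unadjusted 1 of 5), against 10.3% of all genes called either way. Of all 16020 genes, 3620 had an unadjusted p below 0.05 there. KLRD1 was higher at 8 h than at 4 h by 0.49 ± 0.23 (adjusted p = 0.192) and KLRG1 by 0.87 ± 0.56 (adjusted p = 0.38). The change of KLRC3 was -0.59 ± 0.68 and that of KLRF1 -0.26 ± 0.35. In peptide control and vehicle animals 0 of 5 were called, also at an unadjusted p below 0.05, against 0.911% and 0% of all genes. Unadjusted, 2339 and 819 of all genes passed.

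The animals of an arm did not all change alike. At 4 h all 5 tested genes were below their 0 h level in each of the 6 LR12 animals, with a mean change from -3.02 in Y31312 to -1.43 in Y31311. The median of all genes changed by -0.29 in this arm. Among peptide control animals, Y31305 had 2 of 5 genes lower and a mean change of -0.05, and Y31307 had 5 of 5 lower and a mean of -1.69. Without Y31305, KLRB1 (-1.26, adjusted p = 0.024), KLRC3 (-2.66, adjusted p = 0.0305) and KLRD1 (-0.93, adjusted p = 0.03) were called at 4 h in the peptide control arm, and KLRF1 was not (-1.24, adjusted p = 0.0684). Among vehicle animals, the mean change was -1.50, -2.10, -1.37 and -0.43 in Y31301 to Y31304, and the ranges of the mean change of the 3 arms overlapped. Without Y31304, KLRB1 was called in the vehicle arm at 4 h (-1.75, adjusted p = 0.0379).

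**Figure D4:**
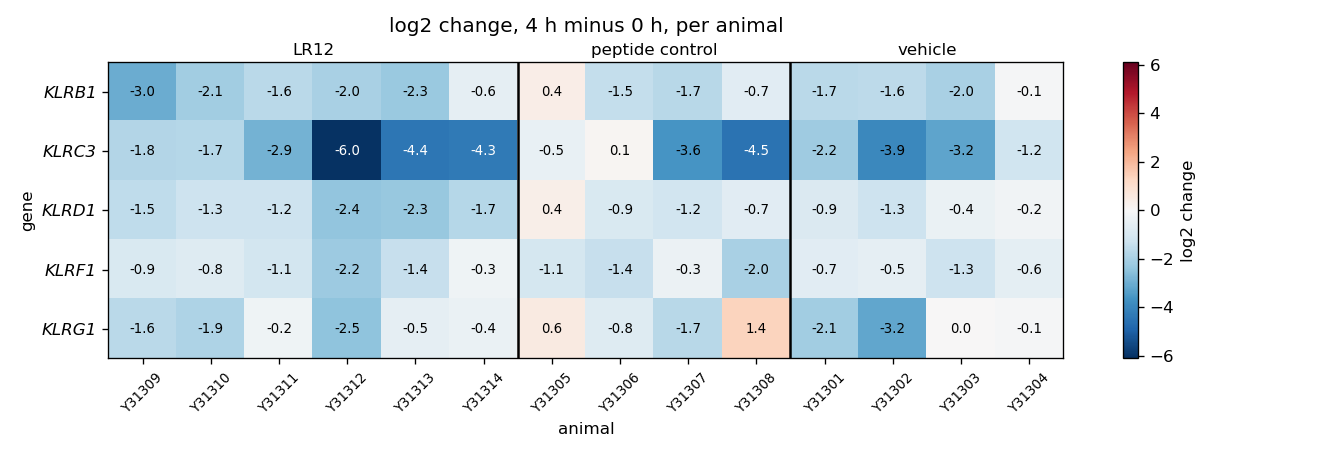
Log2 change from 0 h to 4 h of each tested receptor gene (rows) in each animal (columns, LR12 left, then peptide control, then vehicle), with the value written in each cell. All cells of the 6 LR12 animals are below 0, and 3 of the 5 cells of Y31305 are above 0.

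The tested genes were set against each other in the LR12 animals at 4 h, in 10 pairs, with an exact two-sided sign-flip permutation test over the 6 animals. The change of KLRC3 was below that of KLRD1 in 6 of 6 animals (mean difference -1.77) and below that of KLRF1 in 6 of 6 (-2.41), and the change of KLRD1 was below that of KLRF1 in 6 of 6 (-0.64). These 3 pairs had p = 0.0312, the smallest this exact permutation test allows, and an adjusted p of 0.104 over the 10 pairs, so no pair passed. With the offset of 16 the change of the arm was -1.34 for KLRC3, -1.50 for KLRD1 and -0.53 for KLRF1. The order of KLRC3 and KLRD1 was thus not kept, and the pairs were not tested with the offset. Over the 56 arrays, Pearson's r between tested genes ran from 0.32 (KLRF1 and KLRG1) to 0.80 (KLRC3 and KLRD1). After the group means were removed, r ran from 0.20 (KLRB1 and KLRC3) to 0.67 (KLRC3 and KLRD1). The arrays share animals and scaling, so these values are descriptions without a test.

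Among all genes tested, the 8 most alike over the 56 arrays to the mean of the tested receptor genes were ABCG2, BRD3, PAFAH2, PPP2R2B, LRRC8D, ARHGAP35, EOMES and SAAL1, with r from 0.81 to 0.84. EOMES encodes a transcription factor of NK cells and cytotoxic T cells, and ABCG2 an efflux transporter. Each tested gene has its own 3 most alike. KLRD1 was most like TRDV3, a variable segment of the gamma-delta T-cell receptor, at r = 0.84, then MLEC (0.83) and AFAP1L2 (0.82). KLRB1 was most like IL15, a cytokine that sustains NK cells, at r = 0.83, then PPP2R2B (0.83) and PAFAH2 (0.82). KLRC3 was most like NSD2 (0.79), ARHGAP35 (0.77) and MLEC (0.77), and KLRF1 most like RARB (0.69), KRT23 (0.69) and PTPRS (0.68). KLRG1 was most like M6PR (0.63), the mannose-6-phosphate receptor gene, which is also its neighbour in the macaque gene table, then FER (0.62) and ABRA (0.62). KLRF1 and KLRG1 had lower r with their most alike genes than the other 3 receptor genes.

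In LR12 animals at 4 h, 29.8% of all genes tested were called lower and 12.8% higher, and the counts of gene lists that follow stand against these shares. The shares in peptide control animals at 4 h were 10.5% lower and 4.82% higher. In vehicle animals at 4 h, 43 of 16020 genes were called lower (0.268%) and 34 higher. A list with 0 calls in vehicle animals is therefore not shown to be unchanged. Of 10 tested ligand genes, 2 rose, 1 fell and 7 were not called in LR12 animals at 4 h, with a median change of 0.27 against -0.29 for all genes. CLEC2D, the ligand of KLRB1, fell by 2.82 log2 units (-2.82 ± 0.30, adjusted p = 2.32e-10), in 6 of 6 animals. CLEC2B, the ligand of KLRF1, rose (1.39 ± 0.21, adjusted p = 4.91e-07), in 6 of 6, and HLA-E, read by KLRD1 complexes, rose (0.64 ± 0.19, adjusted p = 0.00418), in 5 of 6. The other arms called 0 of 10 at 4 h. CLEC2D changed there by -0.82 in peptide control animals (adjusted p = 0.122) and by -1.25 in vehicle animals (adjusted p = 0.0988). The ligands of KLRK1 were not called in LR12 animals, with changes of -0.05 for MICA, 0.60 for MICB, 0.79 for ULBP1 and -0.37 for ULBP2 at 4 h. CDH1, the gene of E-cadherin, rose at 2 h (1.80 ± 0.51, adjusted p = 0.00382) and was not called at 4 h (0.90).

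Of 19 adaptor and proximal signalling genes, 10 fell, 4 rose and 5 were not called in LR12 animals at 4 h (all genes 29.8% lower and 12.8% higher), with a median of -0.29, equal to that of all genes. LCK (-3.48), PLCG1 (-2.43), FYN (-2.15) and HCST (-2.0 ± 0.38, adjusted p = 1.94e-05), the adaptor of KLRK1, fell, as did ZAP70 (-1.92) and LAT (-1.89). TYROBP, an adaptor also abundant in myeloid cells, changed by -0.29 ± 0.12 (adjusted p = 0.0429), as much as the median of all genes, and SYK rose (0.55 ± 0.17, adjusted p = 0.00654). Among peptide control animals 5 of the 19 fell and 2 rose at 4 h (all genes 10.5% lower and 4.82% higher). Among vehicle animals 0 of 19 were called (all genes 0.268% lower). HCST changed by -1.0 in peptide control and by -0.98 in vehicle animals at 4 h, with adjusted p of 0.134 and 0.322. LCK, FYN, ZAP70 and LAT also serve T-cell receptor signalling.

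Of 19 other NK receptor genes, 9 fell and 3 rose in LR12 animals at 4 h (median -0.87), where 29.8% of all genes were called lower and 12.8% higher. NCAM1 (CD56) fell by 3.43 log2 units (-3.43 ± 0.50) and IL2RB, a receptor chain for interleukins 2 and 15, changed by -2.61 ± 0.29, whereas the interleukin 18 receptor genes IL18RAP (4.02 ± 0.34) and IL18R1 (2.39 ± 0.57) rose. Of 12 cytotoxic granule genes, 7 fell and 1 rose (median -1.82), led by FASLG (-3.31), GZMH (-3.29), CTSW (-3.11) and GZMM (-2.47). Of 12 transcription factor genes of cytotoxic lymphocytes, 5 fell and 4 rose (median -0.98), with falls of RUNX3 (-2.78), IKZF3 (-2.03), ZBTB16 (-1.75) and EOMES (-1.68). Of 10 chemokine and trafficking genes of these cells, 8 fell and 0 rose (median -1.72), among them S1PR5 (-3.44), CCL5 (-3.06), XCL1 (-2.24) and CXCR3 (-1.96). Of 7 other lectin genes of the family or the NK gene complex, 1 rose and 0 fell. That gene was OLR1, a scavenger receptor of myeloid and endothelial cells (1.69 ± 0.50). At 4 h, peptide control animals had 6 of 12 granule genes lower and 1 higher, where 10.5% of all genes were called lower and 4.82% higher. Vehicle animals had 0 of 12 called, where 0.268% of all genes were called lower.

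**Figure D5:**
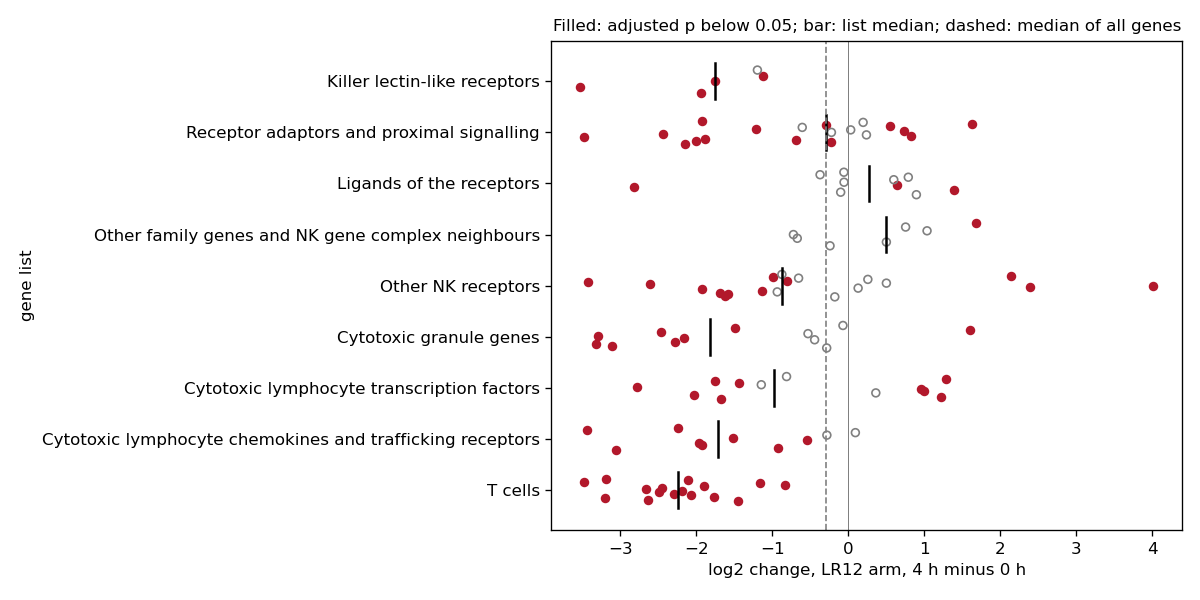
Log2 change from 0 h to 4 h in LR12 animals (x axis) of the genes of each list (rows), 1 point per gene. Filled points have an adjusted p below 0.05, black bars are list medians and the dashed line is the median of all genes at -0.29. The receptor genes have a median of -1.75, between the granule genes at -1.82 and the chemokine and trafficking genes at -1.72, and T-cell markers lie lowest at -2.24.

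Markers of blood cell types also changed in LR12 animals, some lists lower and others higher. At 4 h, 29.8% of all genes were called lower in this arm and 12.8% higher. Of 11 NK-cell markers, which overlap the lists above, 7 fell, 1 rose and 3 were not called at 4 h (median -1.49). NKG7, a granule membrane protein gene, was the 1 that rose (1.60 ± 0.58, adjusted p = 0.023), and the summed intensity of the list ran from 2208 to 5140 at 4 h, against 2654 to 5743 at 0 h. The mean log2 level of the list was 6.11 at 4 h, against 7.46 at 0 h, so its sum, in which NKG7 alone read 11.4 on the log2 scale at 4 h, did not follow its mean. All 16 T-cell markers fell (median -2.24), and their summed intensity ran from 1297 to 4057 at 4 h, against 8890 to 16060 at 0 h, without overlap. In peptide control animals 13 of 16 T-cell markers fell at 4 h (median -1.19, against 10.5% of all genes called lower). In vehicle animals 0 of 16 were called (median -0.67, against 0.268% of all genes called lower). The 3 tested markers of innate-like T cells had a mean log2 level of 5.93 ± 0.39 (SD) at 0 h and 5.84 ± 0.40 at 4 h in LR12 animals. They include ZBTB16 (-1.75) and IL18R1 (2.39), which changed in opposite directions. Of 9 B-cell markers 4 fell and 0 rose in LR12 animals at 4 h. Neutrophil markers rose (9 of 11, 0 fell), as did 6 of 8 monocyte markers, with 1 lower. Of 7 platelet markers 4 fell and 0 rose, and of 7 erythroid markers 1 fell and 0 rose. The part of these shifts in the change of the receptor genes was not tested.

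Array set and RNA quality were set beside these changes. On low-control arrays alone, the LR12 changes at 4 h were -2.04 for KLRB1, -3.91 for KLRC3, -1.95 for KLRD1 and -1.15 for KLRF1, all called (adjusted p of 3.56e-05, 8.94e-05, 2.78e-07 and 0.0378). On high-control arrays alone, where the LR12 arm has 1 array at 0 h, they were -1.78, -2.53, -1.38 and -1.06, and none was called (adjusted p of 0.0934, 0.349, 0.108 and 0.386). The 3′ minus 5′ log2 difference of the GAPDH controls, a measure of RNA integrity, was 1.21, 0.79, 0.68 and 0.67 at 0, 2, 4 and 8 h in LR12 animals, 1.01, 0.88, 1.13 and 0.70 in peptide control animals, and 0.93, 0.82, 0.75 and 0.97 in vehicle animals. That of the ACTB controls was 1.73, 1.48, 1.92 and 1.72 in LR12 animals, 1.33, 1.88, 1.30 and 1.45 in peptide control animals, and 1.52, 1.94, 1.79 and 1.82 in vehicle animals. The GAPDH difference of LR12 animals was thus lower at each later hour than at 0 h, while the ACTB difference was above its 0 h value at 4 h and below it at 2 and 8 h. The part of RNA quality in the changes was not tested.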

How the data were processed

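Whole blood RNA of 14 macaques was hybridised to 56 human genome arrays. The deposited values are linear intensity values per probe set. Per the submitters' processing notes the tool was MAS5, with version and settings not given in the sources used here. The trimmed mean (2%) was 150.026 to 150.037 on each array, and array medians ran from 12.9 to 23.5. Of 54675 probe sets, 41097 had 1 gene symbol, 1801 several and 11777 none, and 38826 lay above the array median on at least 4 arrays. Each of 16020 genes was read by its kept probe set with the highest mean. Log2 values were fitted in limma 3.58.1 (R 4.3.3) over 12 groups of arm and hour, with the animal as a random block (duplicateCorrelation, statmod 1.5.0, consensus correlation 0.221), trend and robust moderation, two-sided, in 33 comparisons. Adjusted p values are Benjamini-Hochberg values over all genes within a comparison.

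The labels number the animals, which gives the pairing. Once group means were subtracted, the mean r was 0.180 between arrays of the same animal (lowest -0.00867, highest 0.513) and -0.0294 between arrays of different animals. Array sets were split at the widest gap (0.30 log2 units) in the mean of 45 spike-in probe sets. On simulated data for LR12 at 4 h against 0 h over 16020 genes, 100 genes were changed by 1 log2 unit and 100 by 2. Of these, 36% of changes of 1 log2 unit and 69% of changes of 2 were recovered, with 6 false calls of 111. The real comparison called 4780 genes lower and 2047 higher, far more than were changed here, so these shares do not carry over to it. Precision is set by the number of arrays.

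The receptor genes and the gene lists were chosen with earlier results of these data known. All receptor genes with a probe set of their own are named. The 8 genes most alike to their mean, the 3 most alike to each and, per list, up to 4 called genes with the largest LR12 change at 4 h are named, with any ligand or adaptor gene. NKG7 was named after its values were seen. Alternatives were another block, no block, centring, quantile normalization, an offset, no filter, all probe sets, plain moderation, array set as a covariate, each array set alone (added after seeing the data) and each animal left out.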

Additional observations from a re-analysis of the deposited data

Results flagged for a closer look

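Of 72 groups of a receptor gene, arm and hour, 4 held an array far from the others of its group, which is near the 1 in 20 (5%) that chance gives. KLRB1 in LR12 animals at 8 h was highest in Y31310 at 6.00, against 5.07 in the next animal. KLRF1 in LR12 animals at 8 h was lowest in Y31313 at 0.73, against 3.32 in the next. KLRG1 in peptide control animals at 0 h was lowest in Y31308 at 2.18, against 4.19 in the next, and this value enters each change of KLRG1 in that arm. KLRC4 in vehicle animals at 4 h was lowest in Y31303 at -0.28, against 2.52 in the next, on a probe set that was low throughout. The change of KLRD1 to 2 h differed between LR12 and vehicle animals by -1.13 in the test of the difference itself (limma, adjusted p = 0.0411).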

How the results depend on the processing

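Of the 5 tested receptor genes, 4 were called lower in LR12 animals at 2, 4 and 8 h, and 3 to 4, 3 to 4 and 4 to 4 with 1 animal left out. The LR12 counts were 4 or 5 under the other settings run, low-control arrays alone included, except for high-control arrays alone (0, 0 and 0), where 1 LR12 array is left at 0 h. The count for peptide control animals at 4 h was 1 in the report, 0 without the replicate block, centred, with quantile normalization, without the filter, over all probe sets and on high-control arrays alone, and 0 to 3 with 1 animal left out (3 without Y31305). At 8 h the offset gave 1 there. For vehicle animals, a fixed replicate block gave 1 at 2 h and 1 at 4 h, low-control arrays alone 1 at 2 h, the offset 1 at 4 h, and leaving out 1 animal 0 to 1 at 4 h. For LR12 against vehicle, leaving out 1 animal gave 1 to 3 at 2 h, 0 to 1 at 4 h and 0 to 2 at 8 h, each highest without Y31303, and low-control arrays alone gave 2 at 2 h. For the difference in the change to 2 h between LR12 and vehicle animals, the count was 0 without the replicate block, centred, without the filter, over all probe sets and on low-control arrays alone, 2 with the offset and with array set as a covariate, and 0 to 2 with 1 animal left out. With quantile normalization KLRD1 was lost and KLRC3 gained in that comparison. For the change to 4 h a fixed replicate block gave 1 and leaving out 1 animal 0 to 1 (1 without Y31305, a peptide control animal outside this difference). The KLRD1 difference of -1.13 in the change to 2 h was 0.0602 with 207796_x_at. Leaving out the block changed no other call of the animal pairing. Except where fewer arrays or another probe set made the difference, the cause was not tested. The counts of this section are given without the share of all genes called under the same setting. They show only how far the calls depend on the processing. Signals near the low end of the array limit KLRC3, KLRC4 and KLRG1, and on high-control arrays alone the vehicle arm has no array at 2 h and gave no value.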
